A study of Mus musculus with 8 samples.

Results

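The 6 STAT genes described here are Stat2, Stat3, Stat4, Stat5a, Stat5b and Stat6, taken by symbol from the 21080 genes of the deposited RNA-seq tables, with each gene's value in all 8 samples. Bone marrow-derived macrophages (BMDMs), which are macrophages grown from marrow cells with M-CSF, came from C57BL/6 mice with floxed Nudt21 alleles and LysM-Cre (Nudt21-cKO) or from sex-matched LysM-Cre littermates (WT), so both genotypes carried the Cre. LysM-Cre acts in myeloid cells, including monocytes, macrophages and neutrophils. The groups were WT at 0 h, Nudt21-cKO at 0 h, WT at 4 h and Nudt21-cKO at 4 h, with 2 samples each (numbered 1 and 2 for WT, 3 and 4 for Nudt21-cKO), and every sample pooled cells of 2 mice. By the study's methods, stimulated cells were primed with IFNγ overnight and then given LPS for 4 h, so the 4 h samples differ from the 0 h samples by both agents. IFNγ/LPS is named in the labels of the 0 h samples too, but their titles give 0 h, and they are treated here as unstimulated. The age of the mice was not given in the sources used here.

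STAT proteins are latent transcription factors that wait in the cytoplasm. When a cytokine binds its receptor, receptor-bound JAK kinases phosphorylate a STAT on tyrosine, and the STATs pair, enter the nucleus and bind DNA. Many STAT genes are themselves targets of the cytokines they serve, so the level of a STAT mRNA in macrophages can change with activation, and SOCS proteins, which are also induced, shut the pathway off. Stat2 serves type I interferon together with Irf9, Stat3 serves IL-10 and IL-6, Stat4 serves IL-12, Stat5a and Stat5b serve GM-CSF, and Stat6 serves IL-4 and IL-13. Nudt21 is the subunit of cleavage factor Im that binds UGUA motifs in pre-mRNA and helps choose the poly(A) site.

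The 6 genes lie on 3 chromosomes of the mouse genome (GRCm38, GENCODE M21). Stat5b (chr11:100780731-100850724, minus strand), Stat5a (chr11:100859351-100885169, plus strand) and Stat3 (chr11:100885098-100939540, minus strand) sit side by side. Stat6 (chr10:127642986-127660957, plus strand) and Stat2 (chr10:128270559-128292849, plus strand) are on chromosome 10, and Stat4 (chr1:51987148-52107189, plus strand) is on chromosome 1. The longest Stat3 transcript model in this annotation runs into the last exon of Stat5a on the other strand for 72 bases. The library kit does not mark strand, so reads there cannot be told apart. Stat6 meets the neighbouring gene Nab2 in 40 shared exon bases on opposite strands. Stat5a and Stat5b are close copies, with 90.5% identity over 2337 aligned mRNA bases, and 4.68% of the 150-base stretches of the Stat5a model also occur in Stat5b, so a small part of their reads could be split between them. Stat4 shares 22.8% of such stretches with Gm28177, an annotated non-coding transcript on the same strand, and Stat2, Stat3 and Stat6 share none with any other gene's transcripts.

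The promoters were searched because Stat2 with Irf9 binds the interferon-stimulated response element (ISRE) and other STATs bind GAS elements. RefSeq promoter windows (GRCm38.p6), from 250 bases before to 50 bases after each start site, were at hand for all 6 genes, in 9 windows. An ISRE form, GAAA and GAAA with any 2 bases between them, searched on both strands, occurred in 1 window of Stat2 and in 1 of the 2 windows of Stat4, and both matches are shown with the match in capitals, 10 bases on each side and the gene's strand 5′ to 3′.
Stat2, chr10:128270266-128270295, plus strand: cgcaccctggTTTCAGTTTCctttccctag
Stat4, chr1:52008133-52008162, plus strand: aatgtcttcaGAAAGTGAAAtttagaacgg
The Stat2 match lies 213 to 222 bases upstream of the start site and is on the opposite strand to the gene. The Stat4 match lies 88 to 97 bases upstream of the second start site, on the gene's own strand. Of all 32851 windows 3.44% held this form. A GAS form, TTC and GAA with any 3 bases between them, was in none of the 9 windows, against 8.30% of all windows. Forms with a spacer of another length were not searched. In the longest transcript models with a RefSeq match, the 3′UTRs of the members ranged from 248 bases (Stat4) to 3701 bases (Stat3), beside a median of 960.0 bases over 17753 genes. They held from 1 UGUA (Stat4) to 16 (Stat3), and per kilobase the range ran from 2.71 (Stat2) to 9.22 (Stat6), beside a median of 5.05.

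The values are the mean number of reads over each base of a gene, unscaled between samples, so levels of different genes can be set side by side per length. Total coverage over genes ranged from 14950347 to 17954882 among the 8 samples, and the read counts behind it were not used here. Nudt21 itself had a coverage of 718 and 641 in WT and 158 and 172 in Nudt21-cKO samples at 0 h, and 547 and 575 against 142 and 115 at 4 h, a 4.10-fold and 4.38-fold lower level (limma, adjusted p = 0.0462 and 0.0445). The fold covers the whole gene, of which the floxed exons are a part. All 9 macrophage markers were above 1 in every group, and their summed coverage was 126862 to 136361 at 0 h and 64316 to 75673 at 4 h. The 7 neutrophil markers summed to 22468 to 24380 in WT and 26051 to 34649 in Nudt21-cKO at 0 h. At 4 h they summed to 17504 to 21568 and 21850 to 24872, so they were higher in Nudt21-cKO at both times. The part of neutrophils in the genotype differences was not tested. On the scale used, the median gene shifted by 0.10 (log2) with genotype at 0 h, by 0.31 at 4 h, by -1.24 with stimulation in WT and by -1.03 in Nudt21-cKO. Stimulation differences of STAT genes are therefore also given relative to the median gene.

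At 0 h, Stat6 had the highest coverage of the STAT genes and Stat4 the lowest. WT samples had a Stat6 coverage of 2408 and 2616, a mean of 2512 ± 147 (SD, n = 2), which placed it at the 94.3 percentile of genes with coverage above 0. Stat3 followed at 1034 ± 53.1, Stat5b at 610.3 ± 44.5, Stat2 at 519 ± 55.9, Stat5a at 323 ± 3.92 and Stat4 at 11.6 ± 1.97. The order was the same in Nudt21-cKO cells, and no neighbours in it overlapped between their 2 samples in either genotype. The smallest step was from Stat5b to Stat2, at 1.18-fold in WT and 1.22-fold in Nudt21-cKO. The largest was from Stat5a to Stat4, at 27.8-fold and 45.8-fold.

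At 4 h the order was Stat3, Stat2, Stat5a, Stat6, Stat5b and Stat4 in both genotypes, again with no overlap between neighbours. Stat3 reached 4511 ± 199 in WT and 5043 ± 164 in Nudt21-cKO, while Stat6 had moved from the first to the fourth place. The gap between Stat3 and Stat2 was 1.39-fold in WT and 1.16-fold in Nudt21-cKO.

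**Figure D1:**
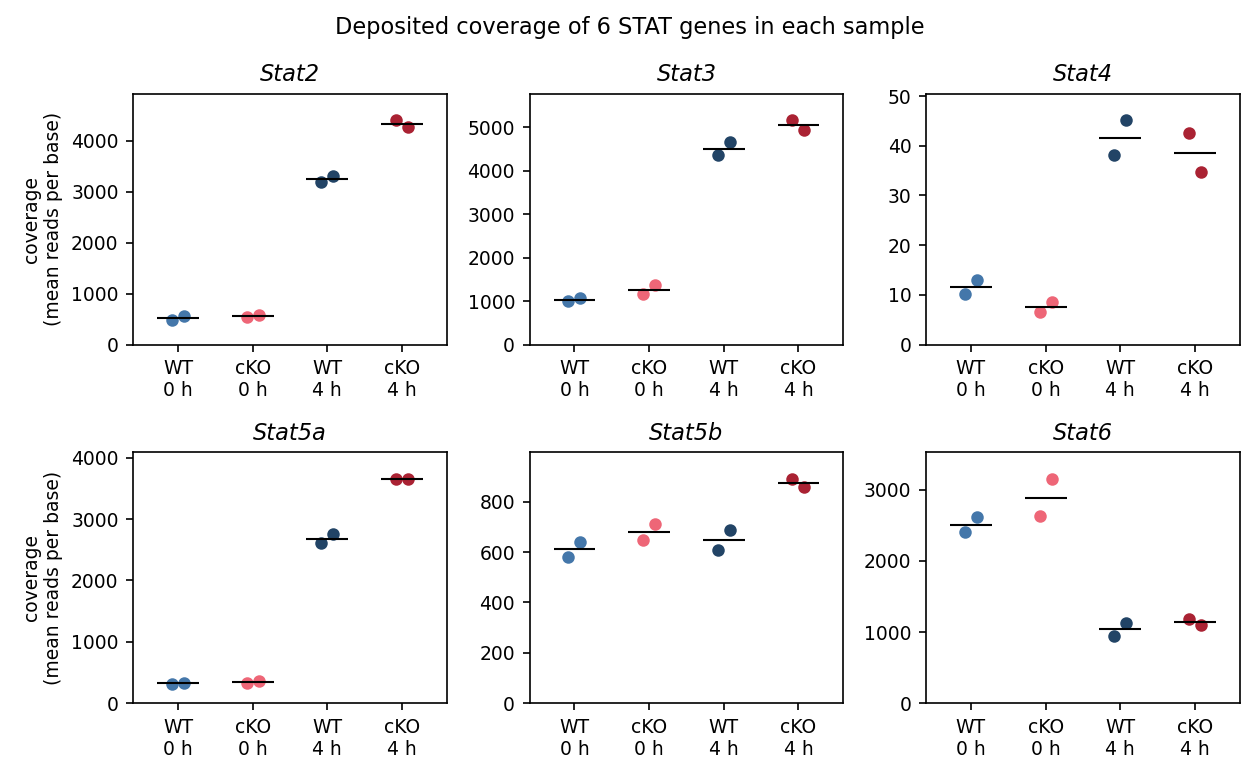
Coverage (mean reads per base, y axis from 0) of each STAT gene in the 8 samples, with a point per sample and a line at the group mean. Stat2, Stat3, Stat4 and Stat5a are higher in every 4 h sample than in every 0 h sample, Stat6 is lower, and the Stat5b samples of WT overlap between the times.

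Because all members of a sample share its depth, their shares of the summed STAT coverage are unaffected when a sample is multiplied by a constant. Stat6 made up 49.4% to 51.0% of the sum in the 4 samples at 0 h and 7.42% to 8.93% at 4 h. Stat3 went from 20.5% to 22.2% at 0 h to 33.2% to 37.1% at 4 h, Stat2 from 9.40% to 10.7% to 26.3% to 28.8%, and Stat5a from 5.74% to 6.68% to 21.9% to 24.6%. Stat5b went the other way, from 11.5% to 12.3% to 5.16% to 5.81%. Stat4 held 0.122% to 0.359%.

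The ratio of Stat5a to Stat5b, the pair of close copies, was 0.553 and 0.508 in WT and 0.515 and 0.497 in Nudt21-cKO samples at 0 h. At 4 h it was 4.30 and 4.00 in WT and 4.10 and 4.26 in Nudt21-cKO samples. Stat5b was thus the more abundant copy in all 0 h samples and Stat5a in all 4 h samples. The ratio of Stat3, the IL-10 and IL-6 factor, to Stat6, the IL-4 factor, ran from 0.410 to 0.444 at 0 h and from 4.15 to 4.60 at 4 h. Between genotypes this ratio did not overlap at 0 h, at 0.414 and 0.410 in WT and 0.444 and 0.434 in Nudt21-cKO, and overlapped at 4 h. The ratio of Stat2 to Stat6 was 0.199 and 0.214 in WT and 0.205 and 0.184 in Nudt21-cKO at 0 h, and 3.35 and 2.95 against 3.73 and 3.88 at 4 h, where the genotypes did not overlap. With 2 samples a group an exact two-sided permutation test cannot give a p below 0.333. The 6 genes together took 0.0304% to 0.0348% of all coverage at 0 h and 0.0757% to 0.0882% at 4 h.

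**Figure D2:**
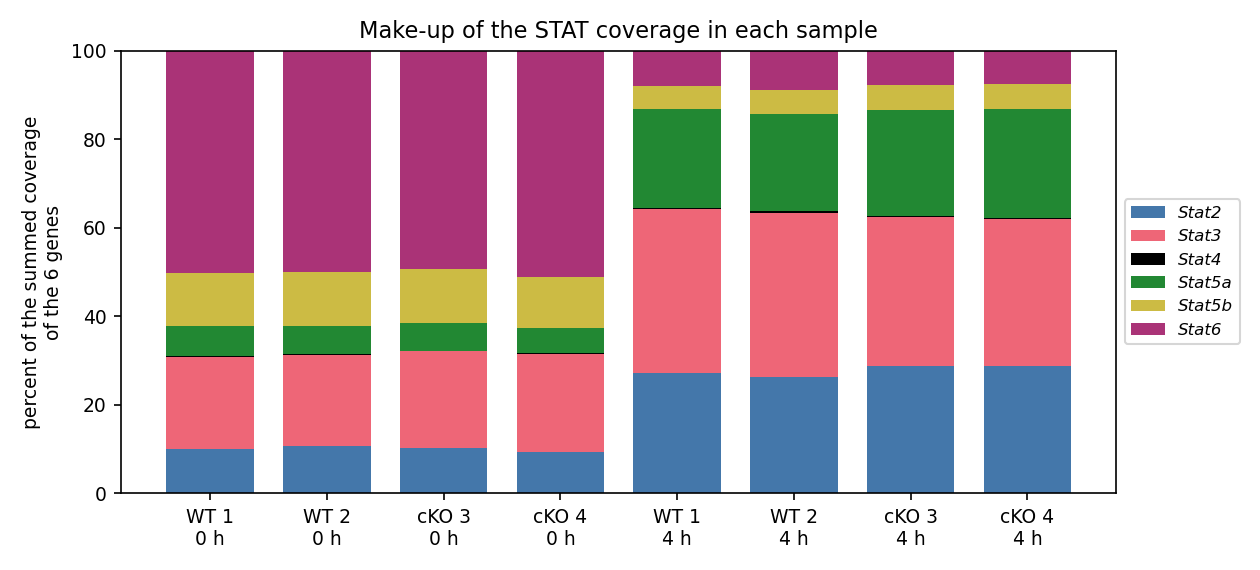
Share of each STAT gene in the summed coverage of the 6 genes (percent, stacked bars that add to 100 in each sample). Stat6 fills about 50% of each 0 h bar and under 9% of each 4 h bar, where Stat2, Stat3 and Stat5a take most of the sum, and Stat4 is too small to be seen well.

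The comparison of 4 h with 0 h asked how each STAT mRNA responded to IFNγ/LPS. By limma over all 8 samples, 4 of the 6 genes rose and 1 fell in each genotype at a fold change above 1.5 with an unadjusted p under 0.05, the rule of the study's methods. Over 16284 genes tested, that rule called 68% in WT (12% higher, 56% lower) and 65.4% in Nudt21-cKO (13.5% higher, 51.9% lower). With an adjusted p under 0.05, 4 genes were higher and 1 lower in WT (71.1% of all genes called), and 5 higher and 1 lower in Nudt21-cKO (69%). The median of the 6 was 1.98 (log2) in WT and 2.17 in Nudt21-cKO. In bulk RNA, a change in the number of cells of a type and in RNA per cell cannot be told apart.

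Stat5a, the GM-CSF factor that was the lower of the pair at rest, had the largest rise of the 6. Its coverage was 320.4 and 326 in WT samples at 0 h and 2613 and 2753 at 4 h, and 334 and 355 against 3651 and 3655 in Nudt21-cKO. Every 4 h sample was above every 0 h sample. The rise was 8.30-fold in WT (95% confidence interval 7.08 to 9.72, adjusted p = 2.3e-05) and 10.6-fold in Nudt21-cKO (9.05 to 12.4, adjusted p = 1.71e-05).

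Its neighbour Stat5b differed. Its coverage was 579 and 642 at 0 h and 607 and 688 at 4 h in WT, ranges that overlap, and 649 and 713 against 891 and 859 in Nudt21-cKO, which do not. The log2 difference was 0.08 in WT (95% interval -0.22 to 0.39, adjusted p = 0.550) and 0.36 in Nudt21-cKO (0.06 to 0.67, adjusted p = 0.0415), where the fold of 1.29 was under 1.5. The call in Nudt21-cKO was lost with equal total coverage (adjusted p = 0.0657) and when any of 6 of the 8 samples (all but the WT samples at 4 h) was left out (adjusted p from 0.0503 to 0.150). Relative to the median gene Stat5b was 1.32 higher in WT and 1.39 higher in Nudt21-cKO (log2), and after median-centring it rose by 1.55 in WT (adjusted p = 0.000144) and by 1.56 in Nudt21-cKO (adjusted p = 0.000158). It also rose by more than 1.5-fold with quantile normalization, by 0.75 in WT (adjusted p = 0.00233) and 0.82 in Nudt21-cKO (adjusted p = 0.00171), and at equal upper quartile, by 0.90 (adjusted p = 0.000769) and 0.97 (adjusted p = 0.000631). At equal total coverage the WT difference was 0.13 (adjusted p = 0.368).

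Stat2, the interferon factor whose promoter holds the ISRE letters shown above, rose 6.27-fold in WT (95% interval 5.12 to 7.68, adjusted p = 5.07e-05) and 7.74-fold in Nudt21-cKO (6.32 to 9.49, adjusted p = 4.42e-05). WT samples went from 479.9 and 559 to 3189.5 and 3305, and Nudt21-cKO samples from 538 and 581 to 4397 and 4268. Among genes with coverage above 0, its mean percentile went from 71.6 to 94.9 in WT and from 71.8 to 95.7 in Nudt21-cKO.

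Stat3, which was already abundant at rest, rose 4.36-fold in WT (95% interval 3.53 to 5.40, adjusted p = 9.52e-05) and 3.99-fold in Nudt21-cKO (3.23 to 4.93, adjusted p = 0.000133). Its coverage was 996 and 1071 in WT and 1166 and 1369 in Nudt21-cKO samples at 0 h. At 4 h it was 4370.4 and 4652 in WT and 5159 and 4928 in Nudt21-cKO samples, with no overlap between the times.

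Stat4, the IL-12 factor best known from T and NK cells, rose 3.58-fold in WT (95% interval 2.44 to 5.25, adjusted p = 0.000961) and 5.11-fold in Nudt21-cKO (3.48 to 7.49, adjusted p = 0.000470), from a low level. Its coverage was 10.2 and 13 in WT and 6.51 and 8.53 in Nudt21-cKO at 0 h, and 38.2 and 45.1 against 42.5 and 34.8 at 4 h. The 7 T cell markers in the tables summed to 179 to 208 in WT and 142 to 148 in Nudt21-cKO at 0 h, nearly all of it Cd4, with Cd3e, Cd8a and Trac at 0. At 4 h they summed to 39.0 to 71.4 in WT, with Cd3e at 0, and to 78.0 to 104 in Nudt21-cKO, with Cd3d and Cd3g at 0. The 3 NK cell markers in the tables summed to at most 10.03 in any sample at 0 h and 3.32 at 4 h. Within the T cell list, Lck, a kinase of T cell receptor signalling, was 5.24 and 7.10 in WT and 0.466 and 1.41 in Nudt21-cKO at 0 h, and 20.02 and 41.5 against 78.1 and 61.6 at 4 h, so it was higher at 4 h as Stat4 was, while Cd4 went from 173 and 197 to 15.1 and 23.5 in WT and from 140.3 and 146 to 22.5 and 13.4 in Nudt21-cKO. The sum of the 5 dendritic cell markers was also higher at 4 h, at 156 to 261 in WT and 206 to 217 in Nudt21-cKO against 29.6 to 34.6 and 35.8 to 68.3 at 0 h. At 4 h it was mostly Ccr7, a chemokine receptor, with Cd209a at 0. The part of other cell types in the Stat4 rise was not tested.

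Stat6, the IL-4 and IL-13 factor of alternatively activated macrophages, was the member that fell. Its coverage went from 2408 and 2616 to 951 and 1122 in WT and from 2627 and 3154 to 1178 and 1101 in Nudt21-cKO samples, without overlap. The level was 2.43-fold lower at 4 h in WT (adjusted p = 0.000876) and 2.53-fold lower in Nudt21-cKO (adjusted p = 0.000848). Relative to the median gene on the deposited scale the difference was -0.04 in WT and -0.31 in Nudt21-cKO (log2), so on that scale Stat6 fell about as far as the median gene did. The median gene itself moved by -1.19 in WT and -1.06 in Nudt21-cKO at equal total coverage. It moved by -0.44 and -0.43 at equal upper quartile, and by -0.24 and -0.27 with quantile normalization. With quantile normalization Stat6 was lower by limma, at -1.13 in WT (adjusted p = 0.000915) and -1.32 in Nudt21-cKO (adjusted p = 0.000564). It was also lower at equal total coverage, at -1.23 (adjusted p = 0.00107) and -1.38 (adjusted p = 0.000782), and at equal upper quartile, at -0.46 (adjusted p = 0.0144) and -0.73 (adjusted p = 0.00300). Only after median-centring did the WT difference turn to 0.19 (adjusted p = 0.175), while that of Nudt21-cKO was -0.14 (adjusted p = 0.307). The 6 genes then counted 5 higher and 0 lower in each genotype (34.7% higher and 22.2% lower over all genes in WT, 32.7% and 22.4% in Nudt21-cKO). Stat2, Stat3, Stat4 and Stat5a were called higher under each of the 5 scalings plotted, but the size moved with the scaling. In WT the log2 differences ran from 2.65 to 4.12 for Stat2, from 2.13 to 3.59 for Stat3, from 1.84 to 3.31 for Stat4 and from 3.05 to 4.52 for Stat5a, and in Nudt21-cKO from 2.92 to 4.15, 1.96 to 3.20, 2.31 to 3.63 and 3.37 to 4.61. The deposited scale gave the smallest value of each in WT. Relative to the median gene the differences were 3.89, 3.36, 3.08 and 4.29 in WT and 3.98, 3.03, 3.38 and 4.44 in Nudt21-cKO.

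**Figure D3:**
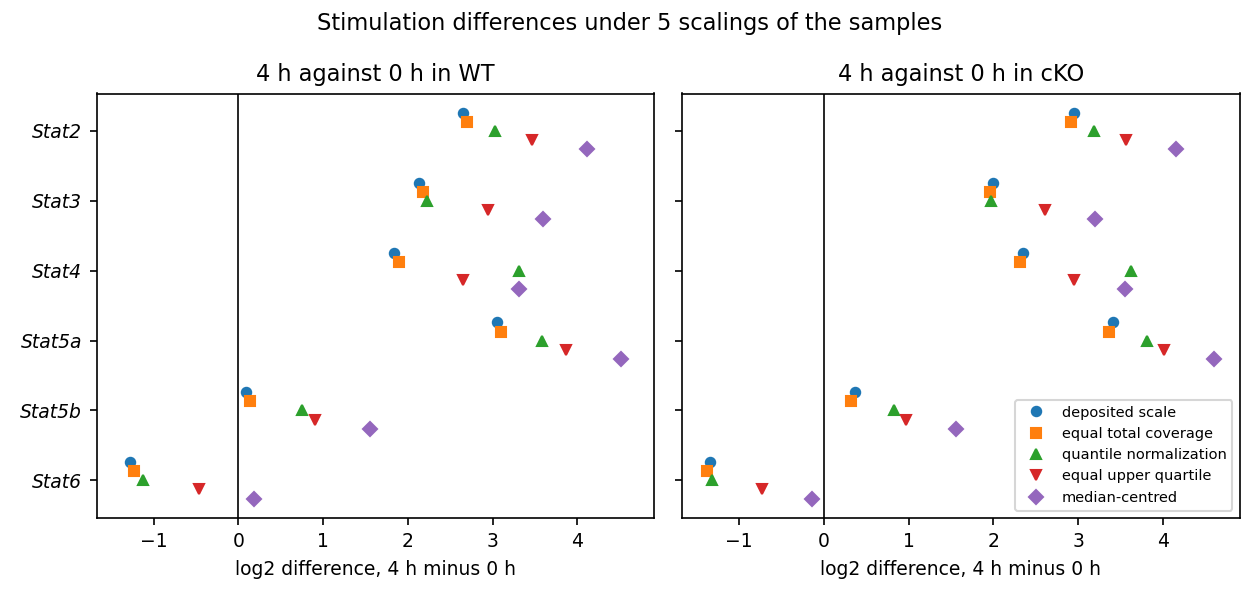
Log2 difference, 4 h minus 0 h, of the STAT genes in WT (left) and Nudt21-cKO (right), with a marker for each of 5 scalings of the samples. Stat2, Stat3, Stat4 and Stat5a lie to the right of 0 under all 5, Stat5b lies near 0 on the deposited scale at 0.08 in WT, and Stat6 crosses 0 in WT after median-centring.

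The comparison of Nudt21-cKO with WT cells asked whether the coverage of the STAT genes differed without Nudt21. Coverage is averaged over the whole gene, and the paper reports mostly shortened 3′UTRs among genes with changed poly(A) site use in Nudt21-cKO BMDMs. A shorter 3′UTR can lower coverage without fewer mRNA molecules, and these cannot be told apart here. The 3′UTR makes up 3701 of the 6042 bases of the longest Stat3 model. Poly(A) site use of the STAT genes was not tested. None of the 6 genes was called at 0 h, where the fold rule called 14.6% of 16251 genes and an adjusted p under 0.05 called 1.03%. None was called at 4 h either, where the rules called 25% and 3.86% of 14950 genes. The adjusted p at 4 h depended on the fit: it called Stat2 without a filter on low coverage (0.0486), Stat5a in the fit of all 8 samples (0.0275), and Stat2, Stat5a and Stat5b with an intensity trend in the variance (0.00888, 0.00766 and 0.0215), all higher in Nudt21-cKO. At an unadjusted p under 0.05 the count was 0 at 0 h, where 13.5% of all genes were higher and 7.76% lower, and 3 (all higher) at 4 h, where 28.7% were higher and 5.65% lower. The median of the 6 was 0.13 at 0 h and 0.29 at 4 h (log2), beside the 0.10 and 0.31 of all genes.

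At 0 h the widest difference was that of Stat4, with a coverage of 10.2 and 13 in WT and 6.51 and 8.53 in Nudt21-cKO samples. The groups did not overlap, and the log2 difference was -0.62 (95% interval -1.34 to 0.10, adjusted p = 0.270). With any of the scalings in the plot of stimulation differences other than the deposited one, Stat4 passed the fold rule as lower (log2 -0.71 to -0.74, with 6.98% of all genes lower after median-centring), but its adjusted p was at least 0.182 in all of them. In the same samples the summed T cell markers were also lower in Nudt21-cKO (142 to 148 against 179 to 208), as were the 5 B cell markers (67.9 to 73.5 against 126 to 143). These sums are nearly all Cd4 and Cd79b, and Lck was lower as well. The NK cell sum was not lower in Nudt21-cKO, at 6.56 to 10.03 against 2.105 to 7.92. The dendritic cell sum, at 35.8 to 68.3 against 29.6 to 34.6, was higher in Nudt21-cKO, as was the neutrophil sum, at 26051 to 34649 against 22468 to 24380. The part of these cell types in the Stat4 difference was not tested.

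The other 5 genes had log2 differences between 0.09 (Stat5a) and 0.29 (Stat3) at 0 h. Stat3 was 996 and 1071 in WT and 1166 and 1369 in Nudt21-cKO, an interval of the difference from -0.15 to 0.73 (adjusted p = 0.353). For Stat2, with a difference of 0.11, the groups overlapped, and for Stat3, Stat5a, Stat5b and Stat6 they did not. The share of all genes without overlap was not counted. The 95% intervals of Stat2, Stat5a and Stat5b ended at 0.54, 0.41 and 0.55, below the log2 of a 1.5-fold rise, and those of Stat3 and Stat6 at 0.73 and 0.67, above it.

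At 4 h, Stat2, Stat5a and Stat5b were each higher in both Nudt21-cKO samples than in both WT samples. The share of all genes for which this held was not counted. Total coverage was also higher in both Nudt21-cKO samples, at 17360205 and 17954882 against 15552049 and 14950347 in WT. The difference was 0.42 for Stat2 (95% interval 0.11 to 0.73, adjusted p = 0.1002), 0.45 for Stat5a (0.13 to 0.76, adjusted p = 0.0933) and 0.44 for Stat5b (0.05 to 0.82, adjusted p = 0.121), all log2. In fold these were 1.33, 1.36 and 1.35, under the threshold of 1.5. Relative to the median gene they came to 0.11, 0.14 and 0.13, and after median-centring the adjusted p was 0.701, 0.574 and 0.558.

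Stat3 was also higher in both Nudt21-cKO samples, by 0.16 (95% interval -0.17 to 0.49, adjusted p = 0.370), and this difference turned to -0.18 after median-centring. For Stat6 the groups overlapped, with a difference of 0.14 (-0.30 to 0.58, adjusted p = 0.528) that turned to -0.20. Stat4 overlapped as well, at 38.2 and 45.1 in WT and 42.5 and 34.8 in Nudt21-cKO, a difference of -0.11 (-0.67 to 0.45, adjusted p = 0.694). This difference was -0.45 median-centred, -0.45 with quantile normalization, -0.32 at equal total coverage and -0.41 at equal upper quartile, with adjusted p from 0.145 to 0.415.

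**Figure D4:**
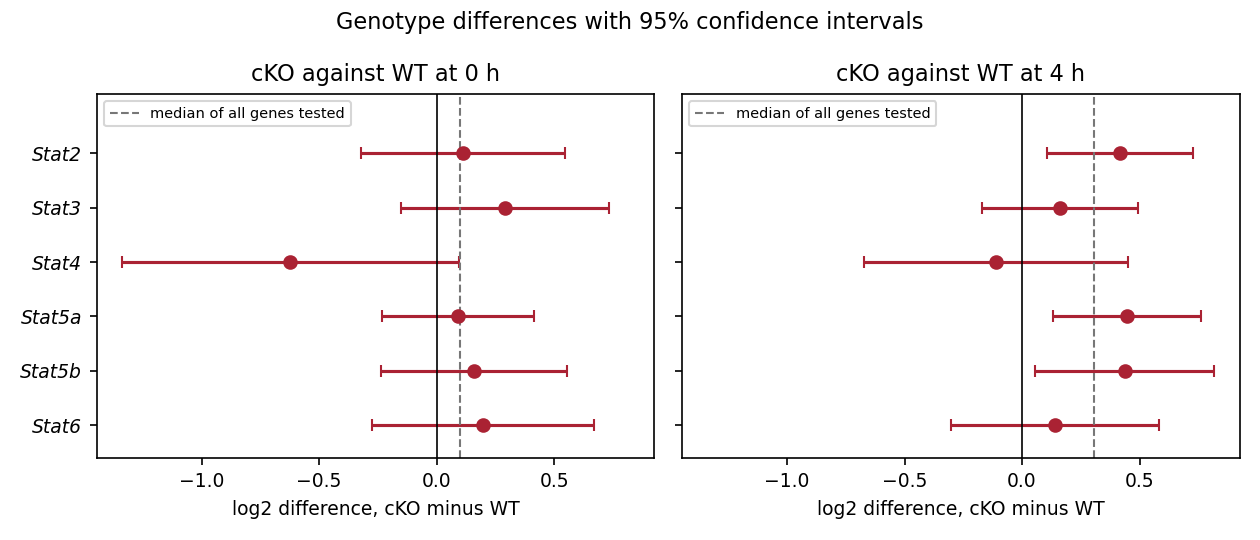
Log2 difference, Nudt21-cKO minus WT, of the STAT genes at 0 h (left) and 4 h (right), with 95% confidence intervals from limma and a dashed line at the median of all genes tested. Every interval crosses 0 at 0 h, and at 4 h those of Stat2, Stat5a and Stat5b lie above 0 but include the dashed line at 0.31.

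Whether the response to stimulation differed between genotypes was asked with an interaction term fitted to the 8 samples. None of the 6 had an adjusted p under 0.05 (3.05% of 16284 genes did), and 1 had an unadjusted p under 0.05, at which 16.8% of all genes were higher and 5.25% lower. This was Stat5a, whose genotype difference was 0.35 larger at 4 h than at 0 h (95% interval 0.03 to 0.68, adjusted p = 0.196), or 0.15 relative to the median gene. Its unadjusted p was above 0.05 under all 4 other scalings and with the replicate block (adjusted p from 0.281 to 0.745), and when any sample but Nudt21-cKO 4 at 0 h or WT 2 at 4 h was left out. In its place Stat3 passed an unadjusted p of 0.05 after median-centring (-0.40, adjusted p = 0.221) and at equal upper quartile (-0.34, adjusted p = 0.215). Stat4 had the largest estimate, 0.51, with an interval from -0.27 to 1.29 (adjusted p = 0.399). The others were 0.31 for Stat2, 0.28 for Stat5b, -0.13 for Stat3 and -0.06 for Stat6, with adjusted p from 0.347 to 0.903.

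Around the STATs, the receptors, kinases, partners, brakes and target genes of the pathway were taken from lists. With stimulation, 6 of 21 cytokine receptors rose and 9 fell in WT, and 6 rose and 8 fell in Nudt21-cKO, by the fold rule, which called 12% of all genes higher and 56% lower in WT and 13.5% and 51.9% in Nudt21-cKO. Il12rb1, a receptor chain for IL-12, which signals through Stat4, went from 1.31 and 9.07 to 204 and 283 in WT. Il6ra, the IL-6 receptor that signals through Stat3, was 16.4-fold lower at 4 h in WT (adjusted p = 1.74e-05) and 12.4-fold lower in Nudt21-cKO (adjusted p = 2.08e-05). Of the 4 JAK kinases, 1 rose and 1 fell in WT and 2 rose and 1 fell in Nudt21-cKO. Jak2, which serves the IFNγ and GM-CSF receptors, rose 14.4-fold in WT (adjusted p = 1.85e-05) and 13.1-fold in Nudt21-cKO (adjusted p = 1.92e-05), from 499.5 and 508 to 7093 and 7378 in WT. Jak1 was 1.52-fold lower at 4 h in WT (adjusted p = 0.00574). After median-centring, 12 receptors were higher and 4 lower in WT and 11 and 3 in Nudt21-cKO, and all 4 JAK kinases were higher in both, beside 34.7% of all genes higher and 22.2% lower in WT and 32.7% and 22.4% in Nudt21-cKO.

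By the same rule, with the shares of all genes given for the receptors, of the 9 STAT partners and coactivators 2 rose and 6 fell in WT and 2 rose and 5 fell in Nudt21-cKO, and 4 rose and 1 fell in each after median-centring. Nmi, a STAT-interacting protein, rose 4.60-fold in WT (adjusted p = 6.78e-05), and Ncoa1, a coactivator that binds Stat6, was 10.3-fold lower (adjusted p = 0.000103). Of the 18 negative regulators, 6 rose and 7 fell in WT and 6 rose and 2 fell in Nudt21-cKO, and 13 rose and 2 fell and 16 rose and 2 fell after median-centring. Socs3, the brake on Stat3 signalling, went from 32.7 and 33.1 to 14706 and 12400 in WT and from 32.4 and 31.8 to 19911 and 19933 in Nudt21-cKO. Socs1 went from 14.7 and 6.57 to 2560 and 2139 in WT and from 4.23 and 3.19 to 3727 and 4295 in Nudt21-cKO.

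All 10 measured genes of the Stat2-Irf9 target list rose in both genotypes, with a median log2 difference of 5.71 in WT and 6.43 in Nudt21-cKO. Rsad2, an antiviral enzyme, went from 68.1 and 86.0 to 26709 and 33933 in WT. Of 8 Stat3 target genes 6 rose in WT and 5 in Nudt21-cKO, and none fell. Junb, a transcription factor of the AP-1 family, rose 6.26-fold in WT (adjusted p = 9.54e-05) and 9.93-fold in Nudt21-cKO (adjusted p = 6.26e-05). Of 4 Stat4 target genes 3 rose in each genotype, and Ifng, the type II interferon, was listed at 0 in all 0 h samples and at 2.51 to 6.40 at 4 h. Of 6 Stat5 target genes 3 rose in each, and 1 fell in WT. Cish, the classical Stat5 target and a SOCS family member, went from 4.09 and 3.44 to 405 and 371 in WT and from 1.11 and 5.27 to 247 and 242 in Nudt21-cKO. Of 11 Stat6 target genes tested, 5 rose and 3 fell in WT and 4 rose and 4 fell in Nudt21-cKO. Ccl22, a chemokine, rose from 9.70 and 10.4 to 1272 and 1634 in WT. After median-centring, the counts in WT were 10 higher of the Stat2-Irf9 targets, 8 of the Stat3 targets, 4 of the Stat4 targets and 5 of the Stat5 targets with 0 lower in each, and 7 higher and 2 lower of the Stat6 targets. In Nudt21-cKO they were 10, 8, 3 and 6 higher with 0 lower in each, and 5 higher and 3 lower of the Stat6 targets. The shares of all genes are those given for the receptors.

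Between genotypes, at 0 h, 0 of 21 receptors were higher and 4 lower, 0 of 4 JAK kinases were called, 2 of 9 partners and 1 of 18 negative regulators were higher, and the fold rule called 8.99% of all genes higher and 5.61% lower. At 4 h, 3 receptors, 4 partners and 2 negative regulators were higher, 1 negative regulator was lower and 0 of 4 JAK kinases were called, beside 20.8% and 4.17% of all genes. After median-centring, 2 receptors were higher and 5 lower at 4 h, 2 partners higher and 1 lower, 0 negative regulators higher and 1 lower, and 0 JAK kinases higher and 1 lower (10.4% and 9.9% of all genes). Stam2, an adaptor of JAK signalling and endosomal sorting, was the largest of the partners at both times. Its coverage was 676 and 665 in WT and 2042 and 2265 in Nudt21-cKO at 0 h (3.21-fold, adjusted p = 0.0527), and 639.9 and 647 against 1786 and 1919 at 4 h (2.88-fold, adjusted p = 0.0424).

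Among target genes at 4 h, 3 of 10 Stat2-Irf9 targets and 4 of 8 Stat3 targets were called higher in Nudt21-cKO with 0 lower, and after median-centring 0 were higher and 1 lower in each list. The shares of all genes are those given for the receptors between genotypes. At 0 h, 1 of 10 Stat2-Irf9 targets was higher and 1 lower, and 0 of the Stat3, Stat4 and Stat5 targets were called. No Stat4 target was called at 4 h. Irf7, a transcription factor for interferon genes, had 9105 and 8745 in WT and 17146 and 16441 in Nudt21-cKO, a 1.88-fold difference (adjusted p = 0.0542). Of 6 Stat5 targets 2 were lower and 0 higher, with Bcl2l1, an inhibitor of apoptosis, at 968 and 1107 in WT and 587 and 636 in Nudt21-cKO (log2 difference -0.76, adjusted p = 0.0730). Socs2, which had the largest difference of this list, went the other way and was not called. It was 5.63 and 19.1 in WT and 45.9 and 38.8 in Nudt21-cKO (4.03-fold, adjusted p = 0.171). Of the Stat6 targets 3 of 12 were higher and 1 lower at 0 h, and 2 of 11 higher and 3 lower at 4 h (1 higher and 3 lower after median-centring). Klf4, which cooperates with Stat6, was 203 and 148 in WT and 747 and 943 in Nudt21-cKO at 4 h (4.84-fold, adjusted p = 0.0531), and the interaction gave it an adjusted p of 0.0303. By adjusted p the interaction called 1 of the 11 Stat6 targets higher (Klf4) and 1 lower, beside 2.28% and 0.761% of all genes, and their median was -0.65 against 0.20 for all genes.

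**Figure D5:**
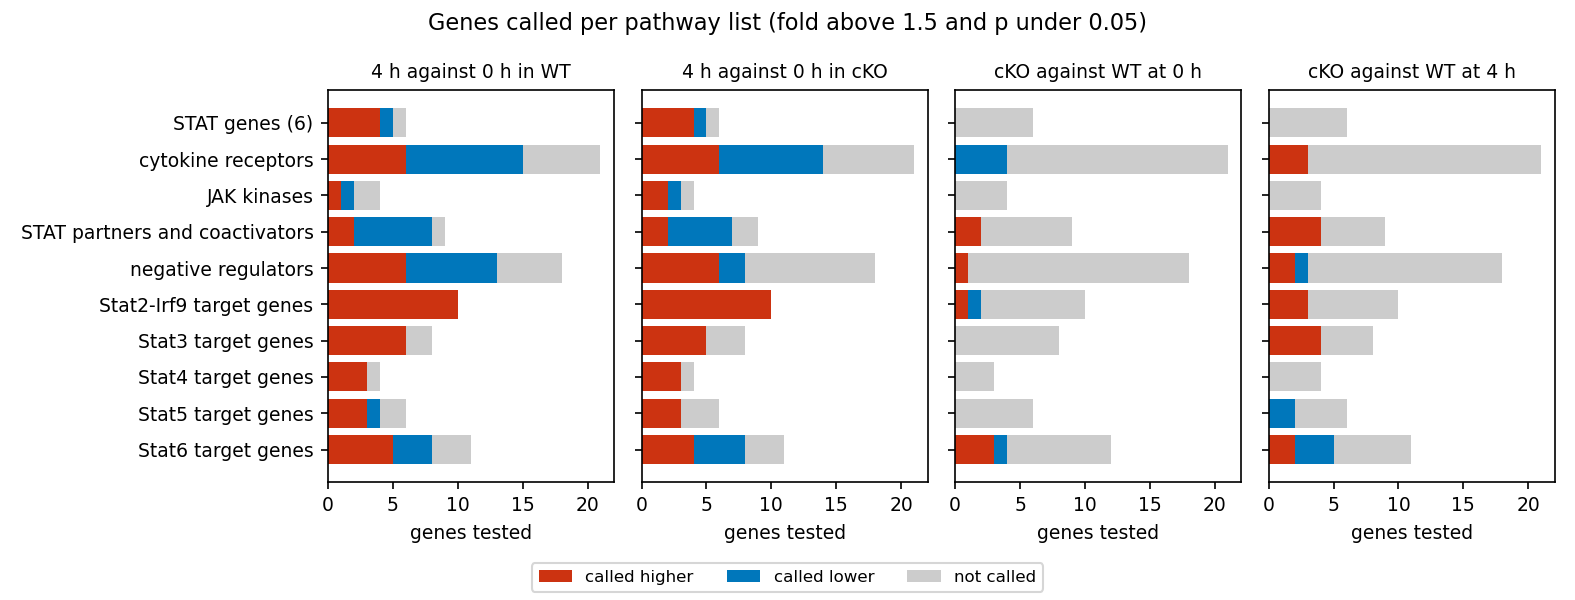
Number of genes called higher, called lower and not called (x axis, genes tested) in each pathway list at a fold above 1.5 and p under 0.05 on the deposited scale, for stimulation in WT and Nudt21-cKO and for genotype at 0 h and 4 h. Stimulation called 5 of the 6 STAT genes in each genotype, and genotype called none at either time.

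For each member, the genes with the nearest profile over the 8 samples were taken by the root-mean-square difference of centred log2 coverage among the 12023 genes whose coverage averaged 10 or more. Nearest to Stat2 were Znfx1 (0.06), Dtx3l (0.08) and H2-T23 (0.08), and 62 genes lay within 0.25. Nearest to Stat3 were Bfar (0.05), Tlk2 (0.07) and Adar (0.09), with 113 genes within 0.25. For Stat5a they were Mapkbp1 (0.09), Nfkb2 (0.09) and Ifi35 (0.10), with 68 genes within 0.25. Stat4 had the fewest near profiles, with Sipa1l1 (0.15), Themis2 (0.18) and Dram1 (0.18) and 28 genes within 0.25. Its coverage was also the lowest of the 6, with SDs of 11.7% to 19.1% of the group means. The part of this spread in its distances was not tested. Stat5b lay near Med13l (0.05), with 730 genes within 0.25. Stat6 lay near Eed (0.05), Parg (0.05) and Arl14ep (0.05), with 1570 genes within 0.25, the most of the 6. Among the members themselves the nearest pair was Stat2 and Stat5a (0.22) and the farthest Stat5a and Stat6 (2.27), while Stat5a and its copy Stat5b were 1.504 apart. These distances rest on 8 samples that share their depth within each sample.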

How the data were processed

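RNA of 8 BMDM samples was sequenced in pairs of 150 bases. Per the labels and the study's methods, the authors aligned reads to GRCm38 (mm10) with HISAT2 2.2.1 and quantified RefSeq genes with StringTie 2.1.7. The values deposited by the authors are coverage signal (mean reads per base), in 1 table for each time, with no scaling between samples. The tables do not name the unit, which was read from the values. Their columns of fold changes and p-values were not used, and all per-sample columns were used.

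Coverage was analysed as log2(coverage + 0.1) with limma 3.58.1 (R 4.3.3), over genes with a mean of at least 0.5 in the samples fitted, and adjusted by Benjamini-Hochberg over all genes tested. Fold changes are on that scale. Genotypes were compared within each time (4 samples), and stimulation and the interaction over all 8. A call needed a fold above 1.5 with p under 0.05, or an adjusted p under 0.05. Since coverage is neither counts nor FPKM, no count test was run. Where nothing says that samples came from separate cultures, p-values measure the spread between 2 samples, each a pool of 2 mice. Genes named from the lists are the 2 with the largest change in a comparison, and up to 3 nearest profiles are given per member. Some genes that this rule names are not reported here. The members and lists were chosen with earlier results of these data known, and the rule fixed with them is not independent evidence. STAT genes outside the 6 were not analysed here. Sequence features used GENCODE M21 and RefSeq tables (Python 3.11.15, blastn 2.17.0). Same-numbered samples at 0 h and 4 h deviated with a correlation of 0.02 in both genotypes, so no block was used.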

Additional observations from a re-analysis of the deposited data

How the results depend on the processing

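The alternatives covered a pseudocount of 1, the filter on low coverage, median-centring, quantile normalization, equal total coverage, equal upper quartile (chosen after seeing the data), the samples fitted, the variance estimate, the replicate block and leaving out each sample. The rises of Stat2, Stat3, Stat4 and Stat5a and 0 of 6 interaction calls held in all that were run for them. At 0 h, 1 STAT gene (Stat4, lower) passed the fold rule in the fit of all 8 samples and under each of the 4 scalings. Genotype differences that changed sign at 0 h were those of Stat5a (-0.00056 median-centred, -0.027 quantile, -0.031 equal total, -0.031 equal upper quartile) and Stat2 (-0.012 equal total, -0.011 equal upper quartile). At 4 h they were those of Stat3 (-0.18, -0.052, -0.050 and -0.14) and Stat6 (-0.20, -0.12, -0.071 and -0.16) in the same order of settings. With stimulation, Stat6 in WT turned to 0.19 after median-centring. At 4 h the adjusted p called 1 STAT gene (Stat2) without a filter, 1 (Stat5a) in the fit of all 8 samples and 3 (Stat2, Stat5a and Stat5b) with an intensity trend in the variance.

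Over all genes, the adjusted p called 167 at 0 h, against 92 with a pseudocount of 1, 827 with all 8 samples, 14 without variance moderation and 1876 with the trend. At 4 h it called 577, against 1306 with a pseudocount of 1, 1230 without a filter, 899 with a mean of at least 1, 236 median-centred, 274 with quantile normalization, 196 with equal total coverage, 284 with equal upper quartile, 3736 with all 8 samples, 62 without moderation and 4313 with the trend. The interaction called 496, against 993 without a filter. The sources used here do not state whether same-numbered samples of the 2 times came from the same pools of mice. With the replicate block the interaction called 31, and Stat5b in Nudt21-cKO lost its call (adjusted p = 0.0664), while no other STAT call with stimulation changed. Leaving out 1 sample gave 0 to 0 adjusted calls at 0 h and at 4 h, where the remaining fit has 3 samples and the lone sample is assumed to vary like the other group. It gave 2243 (without Nudt21-cKO 4) to 4577 calls by the fold rule at 4 h, and 184 (without Nudt21-cKO 4 at 4 h) to 692 by the interaction, and 184 to 320 when the sample left out was any but the WT samples at 4 h. It moved Stat5b in WT between -0.0053 (without WT 2 at 4 h) and 0.17, Stat4 at 4 h between -0.25 and 0.033 (above 0 without WT 2 or Nudt21-cKO 4) and the Stat6 interaction between -0.19 and 0.075. The cause of these changes was not tested.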
